A study of Mus musculus with 6 samples.

Results

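The amino acid transporter families SLC1, SLC3, SLC6, SLC7, SLC36, SLC38 and SLC43 were followed in mouse mammary organoids of wild-type or conditional Ezh2 knockout genotype. Members were the protein-coding genes of the deposited table whose symbol begins with one of these family names, 56 of 16967 protein-coding genes and of 21627 genes in all. A member was tested when it passed edgeR's filter on low counts, which 38 of the 56 did, as did 14196 of all genes. The rule goes by name, so it also takes carriers of taurine, creatine, monoamines, GABA and nucleobases. It takes Slc7a6os as well, a gene next to Slc7a6 that encodes no transporter.

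RNA was sequenced from organoids grown from mammary epithelial cells of female FVB/N mice of the MIC line, aged 8 to 12 weeks. In this line doxycycline induces polyomavirus middle T, an oncogene, and removes Ezh2 from cells with floxed alleles. Wild-type organoids (MIC/EZH2 wt/wt, here WT) and knockout organoids (MIC/EZH2 fl/fl, here KO) gave 3 libraries each. All 6 libraries came from cultures kept in 2 µg/ml doxycycline for 8 days, so the oncogene was induced in both groups and no uninduced organoids were compared. The sources used here give neither the promoters behind the oncogene and the recombinase nor the deleted exons, nor any pooling of mice. No label ties a replicate to its own mouse or culture, so p-values measure only the spread between these libraries, which may be technical.

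Cells import amino acids through carriers that differ in substrate and in driving force. Sodium-coupled carriers of the SLC1 and SLC38 families concentrate glutamine and small neutral amino acids. Exchangers of the SLC7 family trade large neutral amino acids, cationic amino acids or cystine against other amino acids. Several of these exchangers need the heavy chain encoded by Slc3a2 to reach the membrane. Amino acids in turn activate the mTORC1 kinase at the lysosome, and a shortage of them raises the transcription factor ATF4, which is known to induce several of these carriers. In the lactating mammary gland the same carriers supply milk protein synthesis.

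Totals ran from 18292722 to 23437024 counts in WT and from 27667054 to 29203634 in KO libraries, so every KO library was the deeper. Ezh2 stood at 19.3, 22.6 and 14.7 CPM (read counts scaled to library size) in WT replicates 1 to 3 and at 7.13, 7.28 and 5.84 CPM in KO replicates 1 to 3. The KO mean of Ezh2 was 35.8% of the WT mean, so its RNA was lower but not absent. Its log2 fold change was −1.48 ± 0.20 (SE), with an adjusted p of 0.0755 in edgeR and 1.46e-07 in DESeq2, and a two-sided exact permutation p of 0.1, the smallest that 20 arrangements allow. The WT libraries spread more widely than the KO libraries: the range over the WT libraries exceeded that over the KO libraries for 33 of 38 members (86.8%) and for 82.6% of all genes tested. Luminal markers (15 of 15 tested) summed to between 5628 and 6667 CPM per library and basal and myoepithelial markers (12 of 12) to between 606 and 708 CPM. DESeq2 called Gata3 higher (adjusted p 1.44e-05) and Krt19 lower (0.00496) among luminal markers. Among basal and myoepithelial markers it called Oxtr higher (0.000113) and Cnn1 lower (0.00133). Of all genes it called 4.13% higher and 3.53% lower. Fibroblast markers (11 of 11) summed to 3373 CPM in WT replicate 1, against 10812 and 15954 CPM elsewhere in WT and 10887 to 12532 CPM among KO libraries. Immune markers (14 of 17 tested) summed to 2279 CPM in WT replicate 2, against 486 and 788 CPM elsewhere in WT and 499 to 641 CPM among KO libraries. Of these sums Lyz2 held 78.0, 1277 and 339 CPM in WT replicates 1 to 3, and Cd14 held 320, 442 and 302 CPM. Cd79a, Cd3e and Lst1 were too low to test. All 14 tested immune markers had negative log2 fold changes (median −1.54), with Cd14 and Itgax near 0 (−0.007 and −0.008). The median of these markers in log2(CPM + 1) relative to the KO mean was −0.25, 2.35 and 0.65 in WT replicates 1 to 3. DESeq2 called Itgam (adjusted p 0.00567) and Tyrobp (0.0409) lower, where 3.53% of all genes were. In bulk RNA, fewer cells of a type and less RNA per cell cannot be told apart.

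The transporter genes were led by those of the large neutral amino acid exchanger. Ordered by FPKM, which is per gene length, the highest was Slc3a2, the shared heavy chain, at 220 ± 16.4 FPKM in WT and 173 ± 13.4 FPKM in KO organoids (SD, n = 3 per group). Next were Slc7a5 (LAT1, the light chain that carries leucine and other large neutral amino acids) at 139 ± 40.9 and 123 ± 6.81 FPKM, and Slc6a6, the taurine carrier, at 86.4 ± 19.1 and 148 ± 15.4 FPKM. The creatine carrier Slc6a8 (83.7 ± 14.5 and 92.8 ± 5.81 FPKM), Slc38a10 (70.7 ± 7.42 and 74.4 ± 2.63 FPKM) and the small neutral carrier Slc38a2 (61.6 ± 8.77 and 64.1 ± 3.84 FPKM) came after. Slc3a2 was above Slc7a5 in every library of both groups. Each later pair of neighbours among these 6 genes overlapped in WT organoids, and none did in KO organoids, where Slc6a6 was above Slc7a5. The 10 highest members held between 82.3% and 85.3% of the members' summed FPKM in every library. Their make-up varied with the library. Slc6a6 took 6.68% to 12.2% of that sum in WT and 16.2% to 17.9% in KO libraries, and the cystine carrier Slc7a11 took 7.40% in WT replicate 1 and between 0.937% and 1.70% in the other libraries.

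**Figure D1:**
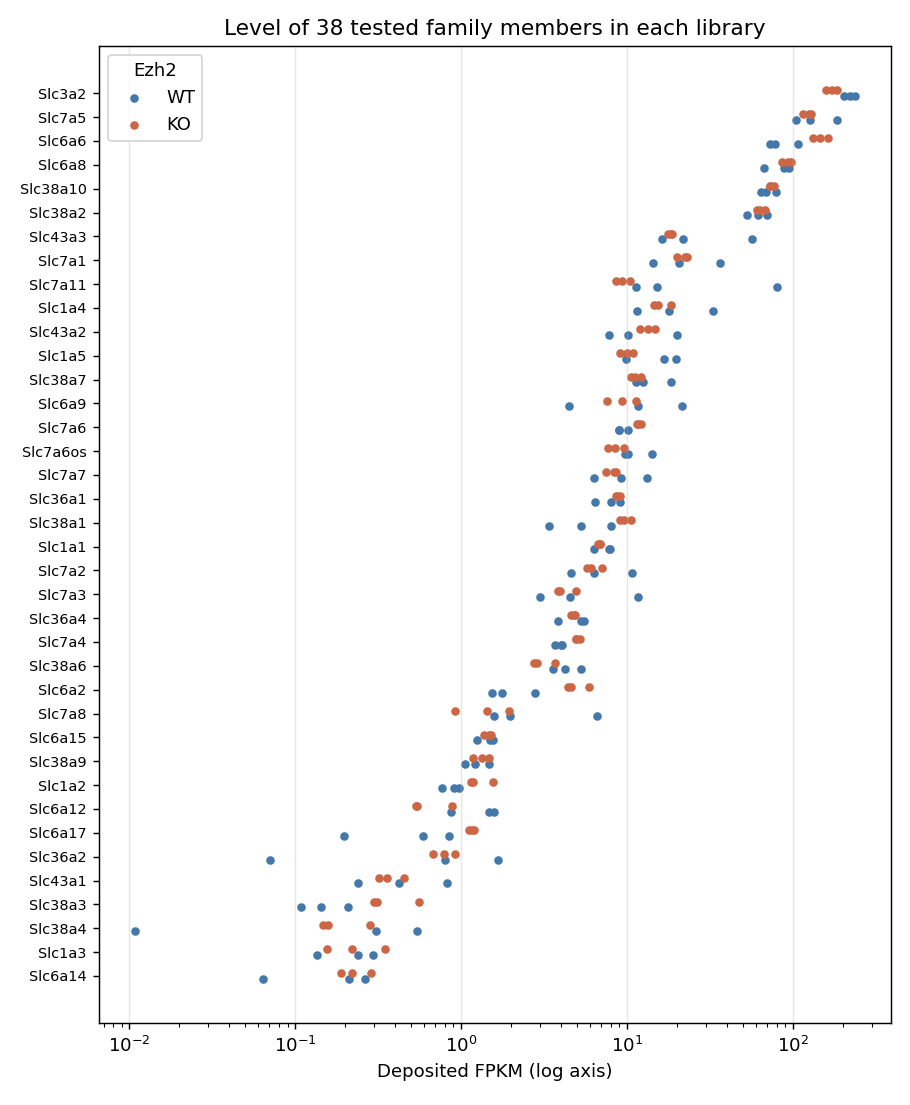
Deposited FPKM (log axis) of the 38 tested members in each of 3 WT (blue) and 3 KO (orange) libraries, ordered by mean. Slc3a2, Slc7a5 and Slc6a6 lead, and the WT points of Slc7a11, Slc43a3, Slc7a8 and Slc36a2 lie far apart.

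The 18 members too low to test held between 1 and 43 counts each over all 6 libraries. Among them were the brain and retina glutamate carriers Slc1a6 and Slc1a7, the cystine and dibasic heavy chain Slc3a1, and Slc7a13, Slc7a14, Slc7a15, Slc38a5 and Slc38a11. Others were of the SLC6 family, such as the GABA carriers Slc6a11 and Slc6a13, the dopamine carrier Slc6a3, the serotonin carrier Slc6a4, the proline carrier Slc6a7, and Slc6a18, Slc6a19, Slc6a20a and Slc6a20b of kidney and intestine. Slc6a20a and Slc6a20b are close paralogs, so their 2 and 31 counts are uncertain.

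Between KO and WT organoids the calls of DESeq2 fell on the carriers of noradrenaline and taurine. Slc6a2 and Slc6a6 rose in that test, 2 of 38 members (5.26%), where 4.13% of the genes with an adjusted p were called higher. It called 0 members lower, where 3.53% of genes were, and 7.67% of genes were called in either direction. In the authors' deposited table the same 2 genes were the only members with an adjusted p under 0.05, of 37 with a value, where 6.18% of all genes were under it. The edgeR quasi-likelihood test, the primary test here, called 0 members and 0% of all genes at an adjusted p of 0.05, with 0.0755 as its smallest adjusted p. At an unadjusted p under 0.05 edgeR placed 7 members higher (18.4%, against 8.93% of all genes) and 5 lower (13.2%, against 10.9%), together 12 (31.6%, against 19.8%). The KO libraries all lay above the WT libraries for 8 members (21.1%, against 14.2% of all genes) and all below for 5 (13.2%, against 14.6%), together 13 (34.2%, against 28.8%), so the lower counts were near the background. The higher counts were above it on few genes, and that excess was not tested. The median log2 fold change was −0.09 over the 38 members, 17 of them positive, and −0.05 over all genes. Without WT replicate 1 the members' median was 0.10.

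**Figure D2:**
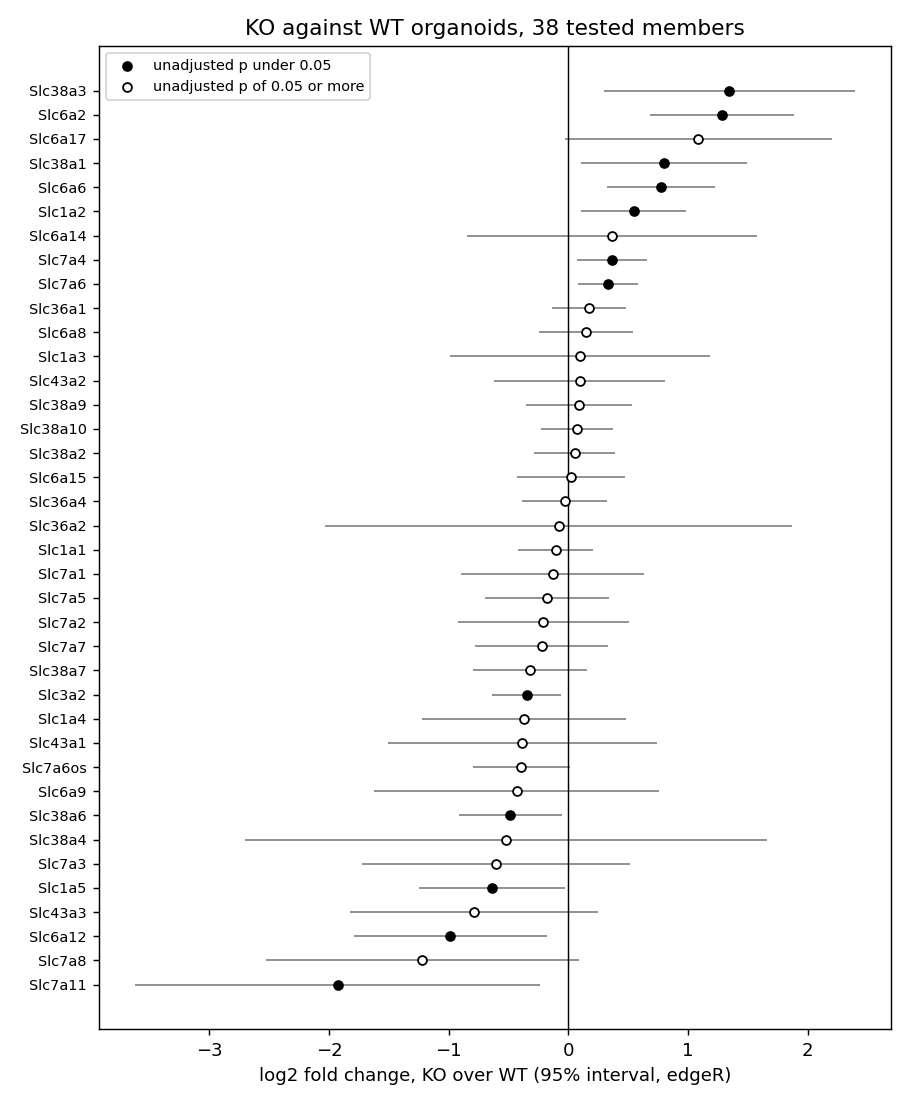
Log2 fold change of KO over WT with its 95% interval (edgeR) for the 38 tested members; filled points have an unadjusted p under 0.05. Slc38a3 and Slc6a2 stand furthest to the right, and Slc7a11 furthest to the left has the widest interval among the filled points.

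Among SLC6 carriers of substrates other than protein amino acids, Slc6a6 encodes TauT, the sodium and chloride coupled importer of taurine, an abundant osmolyte. It lies on chromosome 6 from 91684067 to 91759063 (plus strand, mm10). Slc6a6 stood at 453, 467 and 683 CPM in WT replicates 1 to 3 and at 1008, 817 and 920.2 CPM in KO replicates 1 to 3. All KO libraries lay above all WT libraries, and WT replicate 3 was the WT library nearest to them. The log2 fold change was 0.78 ± 0.19 (SE; 95% interval 0.33 to 1.23), or 1.71-fold, with an adjusted p of 0.116 in edgeR and 0.00382 in DESeq2. Its DESeq2 call was lost without KO replicate 1 or KO replicate 3. In DESeq2 its log2 fold change was 0.71 and 0.79 there, against 0.79 with all libraries. In those runs DESeq2 called 2.07% and 2.39% of all genes, against 7.67% with all libraries. The log2 fold change of Slc6a6 ran from 0.56 to 1.01 over 24 alternative settings.

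Slc6a2 encodes NET, the noradrenaline carrier known from sympathetic neurons. Its gene spans 92960079 to 93001667 on chromosome 8 (plus strand). It stood at 10.9, 9.02 and 17.5 CPM in WT replicates 1 to 3 and at 35.8, 26.7 and 28.4 CPM in KO replicates 1 to 3. The groups did not overlap, and the highest WT library was again replicate 3. The log2 fold change was 1.28 ± 0.26 (SE; 95% interval 0.68 to 1.89), or 2.43-fold, with an adjusted p of 0.0878 in edgeR and 0.000336 in DESeq2. DESeq2 called it whichever library was left out, with adjusted p from 2.06e-09 to 0.0366.

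Other SLC6 members with substrates outside protein synthesis went elsewhere. Slc6a12, the betaine and GABA carrier, stood at 3.93, 4.004 and 2.35 CPM in WT libraries, and its KO libraries held 2.33, 1.43 and 1.43 CPM. The groups touched without overlapping, and the log2 fold change was −0.99 ± 0.34 (SE), with an edgeR adjusted p of 0.192. Slc6a12 was called by DESeq2 only without WT replicate 3 (adjusted p 0.0449). Slc6a8, which brings in creatine, averaged 333 ± 67.0 CPM in WT and 369 ± 27.1 CPM in KO organoids (SD, n = 3 per group), and its groups overlapped.

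Among carriers of glutamine and small neutral amino acids, 6 of them tested, neither tool called a member with all libraries. Slc38a1 (SNAT1, a sodium-coupled glutamine importer; chromosome 15, 96571418 to 96642913) stood at 62.7, 25.4 and 41.9 CPM in WT replicates 1 to 3 and at 81.6, 69.5 and 75.6 CPM in KO replicates 1 to 3. Every KO library was above every WT library, and WT replicate 2 was the lowest. The log2 fold change was 0.80 ± 0.29 (SE; 95% interval 0.11 to 1.496), with an adjusted p of 0.211 in edgeR and 0.0793 in DESeq2. Leaving out WT replicate 1 gave 1.18 and leaving out WT replicate 2 gave 0.53, and DESeq2 without WT replicate 1 called it (adjusted p 2.61e-05).

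Slc38a3, the system N glutamine carrier of liver and brain, was rare, with 0.346, 0.434 and 0.671 CPM in its WT libraries, against 0.939, 1.73 and 0.992 CPM in KO. Its groups did not overlap, and its log2 fold change of 1.34 ± 0.45 (SE) was the largest positive value among the members (edgeR adjusted p 0.176). It rested on between 8 and 12 counts per WT library and 27 to 51 per KO library. Slc38a2 (SNAT2), the stress-inducible carrier of the same family, averaged 286 ± 47.4 CPM in WT and 297 ± 17.7 CPM in KO organoids (SD, n = 3 per group). The 95% interval of its log2 fold change (0.05) reached from −0.28 to 0.39.

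Slc1a5 (ASCT2, an exchanger of glutamine and small neutral amino acids; chromosome 7, 16781346 to 16798274) went the other way. It stood at 56.3, 26.8 and 48.3 CPM in WT replicates 1 to 3 and at 28.1, 25.2 and 31.1 CPM in KO replicates 1 to 3. WT replicate 2 lay among the KO libraries and the other WT libraries above them. The log2 fold change was −0.64 ± 0.26 (SE), with an adjusted p of 0.238 in edgeR. Without WT replicate 1 it was −0.40, with an edgeR adjusted p of 0.310. Without WT replicate 2 it was −0.89 with an edgeR adjusted p of 0.0455, the only call of a member by edgeR in any replicate left out, where 1.49% of all genes were called. DESeq2 without WT replicate 2 also called Slc1a5 (adjusted p 3.86e-06), where 12.3% of all genes were called. Slc1a4 (ASCT1), which carries alanine, serine and cysteine, averaged 82.1 ± 44.5 CPM in WT and 63.5 ± 8.79 CPM in KO organoids, and its log2 fold change of −0.37 turned to 0.15 without WT replicate 1.

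**Figure D3:**
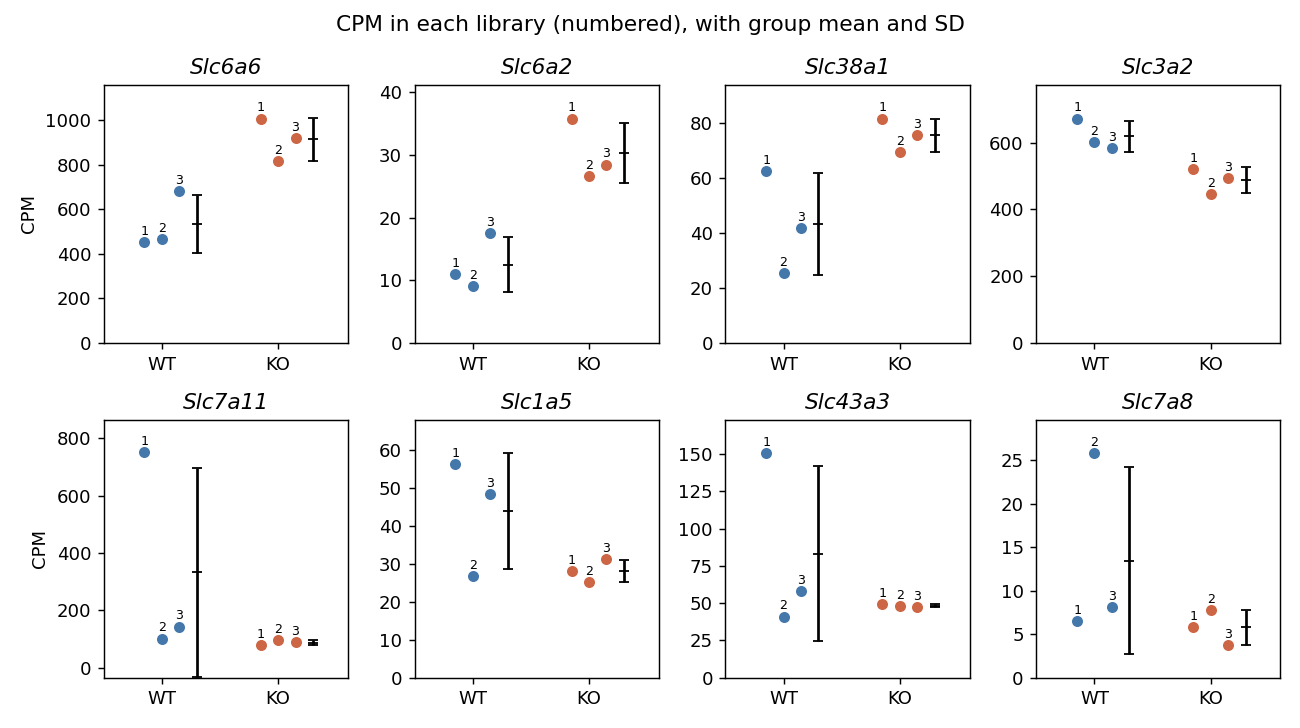
CPM of 8 members in each library, numbered by replicate, with the group mean and SD beside the points. Slc6a6, Slc6a2 and Slc38a1 lie higher in all KO libraries, Slc3a2 lies lower in all of them, and WT replicate 1 (Slc7a11, Slc43a3) or WT replicate 2 (Slc7a8) sets the WT spread of others.

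The heavy chain Slc3a2 (4F2hc or CD98; chromosome 19, 8706882 to 8723369, minus strand) stood at 672, 602 and 584 CPM in WT replicates 1 to 3 and at 521, 445 and 494 CPM in KO replicates 1 to 3. Every KO value was under the lowest WT value, and the KO range of 0.23 in log2(CPM + 1) was wider than the WT range of 0.20. The log2 fold change was −0.35 ± 0.12 (SE; 95% interval −0.64 to −0.06), with an adjusted p of 0.195 in edgeR and 0.0806 in DESeq2, and it stayed between −0.40 and −0.27 over 24 alternative settings. Of the DESeq2 runs, only the one without WT replicate 2 called Slc3a2 (adjusted p 0.0466).

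Light chains that pair with Slc3a2 followed different courses. Slc7a5 stood at 657, 355 and 460.1 CPM in WT organoids, and KO organoids held 436, 404 and 461 CPM, so its groups overlapped and the 95% interval of its log2 fold change (−0.18) ran from −0.70 to 0.34. Slc7a6 (y+LAT2, which exports arginine in exchange for glutamine) was higher in every KO library, with 45.0, 42.7 and 44.4 CPM against WT values of 34.0, 32.2 and 38.7 CPM. Its log2 fold change was 0.33 ± 0.11 (SE), with an adjusted p of 0.171 in edgeR, and DESeq2 called it only without WT replicate 3 (adjusted p 0.0243). Slc7a6os beside it shared no annotated exon bases with it and had a log2 fold change of −0.39 ± 0.17, with KO below WT in all libraries. Slc7a4, an SLC7 gene with no established transport activity, was higher in every KO library too, with 16.0 to 17.4 CPM against WT values of 12.3 to 13.3 CPM, a log2 fold change of 0.36 ± 0.12 (edgeR adjusted p 0.183). Of its exon bases 13.3% overlap P2rx6 on the opposite strand.

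Slc7a7 (y+LAT1), Slc7a8 (LAT2) and Slc43a2 (LAT4), carriers of cationic or large neutral amino acids, were each highest in WT replicate 2. Slc7a8 stood at 6.48, 25.8 and 8.11 CPM in WT replicates 1 to 3 and at 5.77, 7.79 and 3.78 CPM in KO libraries. Its log2 fold change of −1.22 ± 0.55 (SE; edgeR adjusted p 0.279) was −0.33 without WT replicate 2. Slc7a8 was called by DESeq2, as lower, only without WT replicate 1 (adjusted p 0.0169). Slc43a2 stood at 56.6, 137 and 74.5 CPM in WT and at 87.7 to 104 CPM in KO libraries. Its log2 fold change of 0.09 was 0.55 without WT replicate 2, where DESeq2 called it higher (adjusted p 0.012). Slc7a7 reached 27.2 CPM in WT replicate 2, against 13.8 and 20.3 CPM in the other WT libraries and 16.4 to 18.3 CPM in KO libraries. WT replicate 2 is also the library where the immune markers, led there by Lyz2, summed to 2279 CPM. Milk genes (5 of 9 tested, led there by Csn3 and Csn1s1) summed to 3031 CPM in it, against 875 and 887 CPM elsewhere in WT and 618 to 855 CPM in KO. The part of either in these values was not tested.

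Of 3 tested glutamate carriers 1 had an unadjusted p under 0.05, where 19.8% of all genes did, so the count says little about the group. Slc1a2 (GLT-1, the main glutamate carrier of astrocytes; chromosome 2, 102658659 to 102790784) stood at 11.5, 8.64 and 10.7 CPM in WT organoids, and KO organoids held 13.2, 17.9 and 13.9 CPM, with no overlap. Its log2 fold change was 0.55 ± 0.19 (SE), with an adjusted p of 0.184 in edgeR, and 0.16 once each library's trend on gene length was removed. Slc1a2 was called by DESeq2 only without WT replicate 1 (adjusted p 0.0409). Slc1a1 (EAAC1, which carries glutamate and cysteine) averaged 27.9 ± 4.09 CPM in WT and 25.96 ± 0.541 CPM in KO organoids (SD, n = 3 per group). Its log2 fold change was −0.11, with a 95% interval of −0.42 to 0.21, and 31.9% of its exon bases overlap 4430402I18Rik on the opposite strand.

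Lysosomal carriers, which release amino acids to the cytosol where mTORC1 senses them, and their proton-coupled relatives held 0 of 5 tested members with an unadjusted p under 0.05, too few to set against the 19.8% of all genes. Slc38a9, the lysosomal arginine sensor, averaged 11.2 ± 2.10 CPM in WT and 11.9 ± 1.33 CPM in KO organoids (SD, n = 3 per group), with a 95% interval of the log2 fold change from −0.36 to 0.53. Slc36a1 (PAT1), a proton-coupled carrier of small amino acids, averaged 41.1 ± 6.14 and 46.3 ± 1.48 CPM, with an interval from −0.13 to 0.48. Slc38a7, which exports glutamine and asparagine from lysosomes, averaged 47.2 ± 13.6 and 37.9 ± 3.30 CPM, with an interval from −0.80 to 0.16.

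Less characterised and vesicular carriers come last. Slc38a6, a less characterised SLC38 gene, stood at 16.7, 20.02 and 14.3 CPM in WT libraries, and its KO libraries held 10.8, 14.3 and 11.4 CPM. Its closest libraries nearly met, and its log2 fold change was −0.48 ± 0.18 (SE; edgeR adjusted p 0.218). Slc6a17, a vesicular carrier of neutral amino acids in neurons, stood at 3.76, 1.21 and 5.48 CPM in WT and at 7.04 to 7.58 CPM in KO libraries, with no overlap, a log2 fold change of 1.09 ± 0.47 and an edgeR adjusted p of 0.262. Leaving out WT replicate 2 gave 0.68, and leaving out WT replicate 3 gave 1.57, where DESeq2 called it (adjusted p 0.0215). Slc38a10 averaged 324 ± 42.8 and 341 ± 16.4 CPM (SD, n = 3 per group), with overlapping groups.

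The widest spread within a group belonged to Slc7a11, the cystine importer xCT that supplies cysteine for glutathione. Its gene runs from 50364936 to 50443613 on chromosome 3 (minus strand, mm10). It stood at 752, 101 and 143 CPM in WT replicates 1 to 3 and at 78.8, 95.1 and 88.1 CPM in KO replicates 1 to 3. Every KO library lay below every WT library, but WT replicate 1 stood far above the rest. The log2 fold change of −1.93 ± 0.72 (SE; 95% interval −3.62 to −0.24; edgeR adjusted p 0.215, DESeq2 0.199) was −0.47 without WT replicate 1. Slc7a11 was called by DESeq2 only without WT replicate 2 (adjusted p 0.0363), a run that keeps WT replicate 1. No adjusted p stands beside Slc7a11 in the authors' deposited table.

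Slc7a11 was the highest of a set of members with the same library on top. WT replicate 1 exceeded the mean of the other WT libraries by over 1 unit of log2(CPM + 1) for 7 of 38 members (18.4%), against 1.81% of all genes tested. The corresponding counts were 2 members (5.26%, against 4.45%) for WT replicate 2 and 3 (7.89%, against 2.01%) for WT replicate 3. WT replicate 2, which is part of the mean set against WT replicate 1, was the lowest library for 18 members (47.4%, against 27.7% of all genes). The members' median in log2(CPM + 1) relative to the KO mean was −0.009, −0.24 and 0.12 in WT replicates 1 to 3. Beside Slc7a11, by 2.63 units, the 7 were Slc43a3 (a purine nucleobase carrier, 1.605), Slc7a3 (1.58), Slc6a9 (GlyT1, the glycine carrier, 1.56), Slc1a4 (1.21), Slc7a1 (1.12) and Slc7a2 (1.01). Slc7a1, Slc7a2 and Slc7a3 are the CAT carriers of arginine and lysine. Relative to the KO mean, Slc7a1 and Slc7a2 were at 0.76 and 0.79 in WT replicate 1 and at −0.66 and −0.49 in WT replicate 2.

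In CPM, Slc7a1 stood at 266, 99.0 and 151 in WT replicates 1 to 3 and at 165, 144 and 163 in KO libraries. Slc43a3 stood at 150.4, 41.0 and 58.1 CPM in WT and at 47.1 to 49.1 CPM in KO libraries. Slc6a9 stood at 76.0, 15.1 and 41.7 CPM in WT organoids, with KO libraries from 26.05 to 40.4 CPM, and 27.8% of its exon bases overlap Ccdc24 on the opposite strand. For each of these 3 genes the KO libraries lay between the highest and the lowest WT library. Without WT replicate 1 the log2 fold changes were 0.35 for Slc7a1, 0.22 for Slc7a2, 0.19 for Slc7a3 and 0.23 for Slc6a9, where with all libraries they were −0.13, −0.21, −0.60 and −0.43. Slc43a3 went from −0.79 to −0.03. Slc7a5, the leucine carrier, went from −0.18 to 0.10. Slc43a3 and Slc6a9 were called lower by DESeq2 only without WT replicate 2 (adjusted p 0.0145 and 0.0397).

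**Figure D4:**
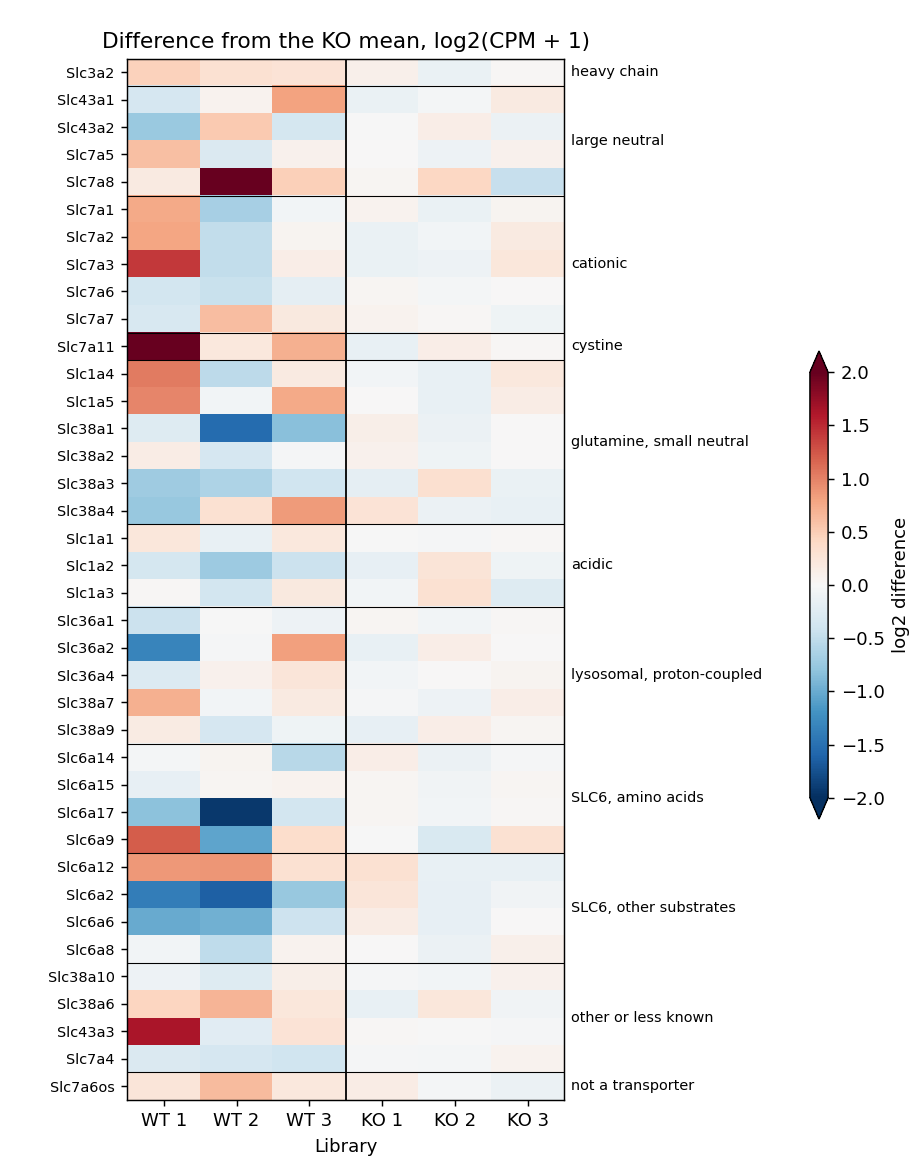
Difference of each library from the KO mean in log2(CPM + 1) for the 38 tested members, grouped by role; colours are capped at 2, which Slc7a11 in WT replicate 1 (3.10) and Slc7a8 in WT replicate 2 (2.03) exceed. WT replicate 1 is red for Slc7a11, Slc7a1, Slc7a2, Slc7a3, Slc1a4 and Slc1a5 but blue for Slc7a6, Slc7a7, Slc38a1, Slc38a3 and Slc38a4; no KO cell exceeds 0.46 in size.

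WT replicate 1 was also the library where 25 genes of the amino acid response, the ATF4 programme, summed highest. They held 4061 CPM there, 2216 and 2814 CPM in WT replicates 2 and 3 and 2029 to 2334 CPM in KO libraries. Their median in log2(CPM + 1) relative to the KO mean was 0.81 there, −0.09 for WT replicate 2 and 0.38 for WT replicate 3. Atf4 itself held 358, 202 and 241 CPM in WT organoids and 171 to 196 CPM in KO organoids. Fibroblast markers were lowest in the same library, and the part of either in the transporter values was not tested.

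The promoter of Slc7a11 is shown because ATF4 binds the amino acid response element, whose letters TGATGNAA were searched on both strands in the 250 bases before each annotated start. Capitals mark the matches, which begin 66 and 47 bases before the start, the second of them on the opposite strand. The window is chr3:50443614-50443863 on the minus strand of GRCm38.p6, from RefSeq.
Slc7a11: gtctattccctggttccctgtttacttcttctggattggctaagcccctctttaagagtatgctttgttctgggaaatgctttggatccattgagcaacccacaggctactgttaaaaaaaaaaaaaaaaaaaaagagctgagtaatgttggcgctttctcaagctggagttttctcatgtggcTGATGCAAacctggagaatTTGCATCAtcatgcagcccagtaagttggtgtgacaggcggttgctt

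Promoter windows were at hand for 25 of the 38 tested members, 41 windows in all. The letters occurred in 3 of these windows (7.32%), and in 3 of 58 windows (5.17%) of all members, against 3.45% of 32851 windows of all genes. They belong to Slc7a11 and Slc7a7 alone, and the difference in share was not tested. The other 2 windows belong to alternative starts of Slc7a7, shown in 30-base stretches (chr14:54417923-54417952 and chr14:54418067-54418096, minus strand) to set a lone match beside the facing pair of Slc7a11.
Slc7a7 start a: tagaagcTGATGCAAcagcttccccgaggg
Slc7a7 start b: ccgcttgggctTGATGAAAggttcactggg
Slc7a7 was lowest in WT replicate 1, at 13.8 CPM, where Slc7a11 was highest. Of the 7 members high in WT replicate 1, Slc7a1, Slc1a4 and Slc6a9 had 6 windows with no match, and Slc7a2, Slc7a3 and Slc43a3 had no window here. A match in letters is a description and does not show that a factor was bound.

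**Figure D5:**
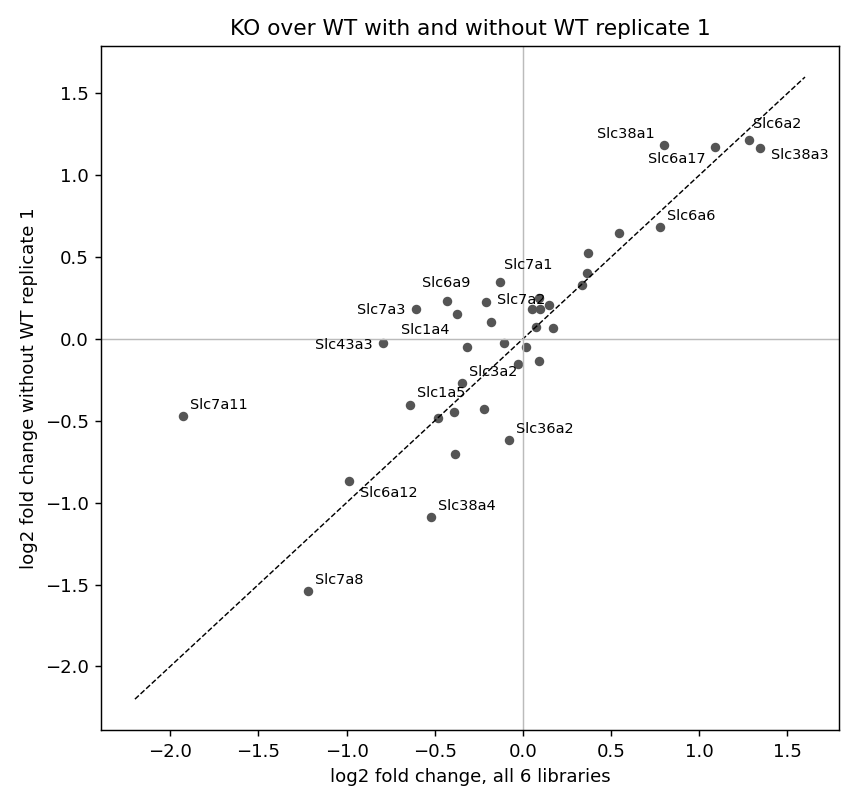
Log2 fold change of each tested member with all 6 libraries (x axis) and without WT replicate 1 (y axis); the dashed line marks equal values. Slc7a11 moves from −1.93 to −0.47, and Slc6a6 and Slc6a2 stay near the line. Slc7a1, Slc7a2, Slc7a3, Slc7a5, Slc6a9 and Slc1a4 cross 0 upward. Slc43a2 (0.09 to −0.14) and Slc6a15 (0.02 to −0.05) cross it downward.

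Slc36a2, Slc38a4 and Slc43a1, members of low abundance, were at their lowest in the same WT replicate 1. Slc36a2 (PAT2, a proton-coupled carrier of small amino acids) stood at 0.173, 1.88 and 4.14 CPM in WT replicates 1 to 3, and KO libraries ran from 1.63 to 2.21 CPM. Slc38a4 (SNAT4) stood at 0.0432, 1.16 and 2.18 CPM, the first of them a single count, and KO libraries ran from 0.588 to 1.11 CPM. Slc43a1 (LAT3) stood at 0.951, 1.59 and 3.30 CPM, with KO libraries from 1.25 to 1.80 CPM. In each case WT replicate 3 was the highest library, and the KO libraries lay between. Fibroblast markers, in sum, had the same lowest and highest libraries. Adipocyte markers (3 of 7 tested, with Adipoq, Cidec, Plin1 and Lep near 0) summed to 9.81 CPM in WT replicate 1, 87.4 and 50.9 CPM in WT replicates 2 and 3 and 31.1 to 33.9 CPM in KO libraries. The part of either in these transporter values was not tested.

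Genes around the transporters were read from 4 lists, to be set against the 4.13% of genes called higher and 3.53% called lower by DESeq2, and 8.93% and 10.9% at an unadjusted p in edgeR. In the amino acid response list 22 of 25 members had negative log2 fold changes, with a median of −0.52 (−0.21 without WT replicate 1). DESeq2 placed 4 lower and 0 higher, edgeR called 0, and 11 were lower at an unadjusted p under 0.05 in edgeR. Without WT replicate 1 the count at an unadjusted p was 4 of 25, near the 13.9% of all genes. Without WT replicate 2 it was 19, where 12.5% of all genes were lower. There edgeR called 4 of the list and 1.49% of all genes. DESeq2 called 1 when any KO library was left out, where 2.07% to 2.64% of all genes were called. It called 15 without WT replicate 2, where 12.3% of all genes were called. With all libraries its 4 were the transcription factor genes Atf3 (−0.87 ± 0.20, SE) and Ddit3 (−1.63 ± 0.56), the stress cytokine gene Gdf15 (−2.14 ± 0.54) and the serine synthesis gene Psat1 (−0.66 ± 0.19). Psat1 averaged 249 ± 65.8 CPM in WT and 157 ± 2.55 CPM in KO organoids (SD, n = 3 per group). Ddit3 stood at 106, 17.6 and 61.9 CPM in WT replicates 1 to 3 and at 17.7 to 24.3 CPM in KO libraries. Its WT replicate 2 thus lay below every KO library. Gdf15 stood at 31.6, 6.46 and 12.9 CPM in WT replicates 1 to 3 and at 3.54 to 4.44 CPM in KO libraries.

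Of 33 tested genes of amino acid sensing by mTORC1, DESeq2 placed 2 higher and 1 lower and edgeR called 0. At an unadjusted p under 0.05 edgeR placed 3 in each direction, and these counts were near the shares of all genes given above. Without WT replicate 1 it placed 7 higher and 8 lower, where 13.4% and 13.9% of all genes were. All 3 DESeq2 calls were lost when any KO library was left out, where 2.07% to 2.64% of all genes were called. The higher ones were Depdc5 (0.37 ± 0.10, SE), a subunit of GATOR1, which restrains mTORC1 when amino acids are short, and Sesn3 (0.54 ± 0.15), of the sestrin family. The lower one was Lamtor2 (−0.39 ± 0.10), part of the lysosomal scaffold of mTORC1. Wdr59 of GATOR2 was at 0.28 ± 0.09.

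Among 19 tested carriers of other families, DESeq2 placed 1 higher and edgeR called 0, with 2 higher and 1 lower at an unadjusted p under 0.05. These counts were too small to set against the shares of all genes. The DESeq2 call was Ctns, the lysosomal exporter of cystine, at 44.6 ± 3.57 CPM in WT and 58.1 ± 1.95 CPM in KO organoids (SD, n = 3 per group; log2 fold change 0.38 ± 0.10, SE). No gene of the list was called by DESeq2 when any KO library was left out, where 2.07% to 2.64% of all genes were. The mitochondrial aspartate and glutamate carrier Slc25a12 was at 0.28 ± 0.09, the glycine carrier Slc25a38 at −0.45 ± 0.16 and Slc15a4, a lysosomal carrier of histidine and peptides, at 0.28 ± 0.12. Of 11 genes of transporter trafficking and turnover, 0 were called by either tool with all libraries, and 2 were higher at an unadjusted p under 0.05. These were the ubiquitin ligase gene Nedd4 (0.43 ± 0.16) and the kinase gene Sgk3 (0.57 ± 0.23), with Sgk1 at −0.29 ± 0.14 and Laptm4a at −0.15 ± 0.11.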

How the data were processed

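RNA was measured by poly(A) RNA sequencing in 6 libraries, amplified by PCR without molecular identifiers and, per the labels' protocols, with no named step that marks the strand. Per the submitters' processing notes, CASAVA, STAR and the build mm10 were used; no source used here names the counter or its annotation. The authors deposited whole-number read counts per gene. Their deposited FPKM equals count per kilobase of gene length, scaled to the library total. The authors' signal columns (mean normalized counts per group), log2 fold change and p-value columns come from a test that no source used here names. Values from them are credited to that table wherever given, and the signal columns were not used.

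The primary test was edgeR 4.0.16 under R 4.3.3 (TMM scaling, minimum count 10, minimum total 15, robust quasi-likelihood F test, Benjamini-Hochberg over 14196 genes, threshold 0.05). CPM used TMM-scaled totals. DESeq2 1.42.0 ran on the same genes, and limma 3.58.1 and mgcv 1.9.3 served alternatives. The fits were tested on simulated data. Exon overlaps came from GENCODE M21 (38 of 38 tested members matched) and promoters from RefSeq (39 of 56 members matched). Named were Ezh2, tested members with an unadjusted p under 0.05 in edgeR or a call in DESeq2, the 8 members highest in FPKM and up to 4 genes per list. Members named beyond this rule, and Atf4, were chosen after their values were seen. Members, lists and tests were chosen with earlier results of these data known. Same-numbered WT and KO libraries did not deviate together in every pair (correlations −0.10, 0.32 and 0.14), so the numbers were not taken as pairs. Not every member too low to test is reported here by name.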

Additional observations from a re-analysis of the deposited data

How the results depend on the processing

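Of 38 tested members, 19 kept the sign of their log2 fold change over all 24 alternative settings, and 55 of 900 values were reversed. The runs of DESeq2 without each library were added after seeing the data. Calls of members as higher, 0 in edgeR, were 2 in DESeq2, 1 with no filter on low counts and 1 at an adjusted p under 0.10, and calls as lower were 0 in each. Leaving out each library in turn, in edgeR and DESeq2 together, gave 0 to 4 called higher and 0 to 5 called lower. Of all genes edgeR then called 0% to 1.49% and DESeq2 2.07% to 14.9%, in either direction. DESeq2 called 5, 8 and 5 of the 38 without WT replicates 1, 2 and 3, and 14.9%, 12.3% and 9.92% of all genes. Without KO replicates 1, 2 and 3 it called 1, 2 and 1 of them, and 2.07%, 2.64% and 2.39% of all genes. At an unadjusted p leaving out each library gave 4 to 9 higher and 0 to 9 lower, against 4.95% to 13.9% and 5.84% to 13.9% of all genes, and limma on log2(FPKM + 1) or log2(FPKM + 0.1) gave 3 lower each (10.1% and 10.2% of all genes). The median over members ran from −0.15 to 0.10 over libraries left out, and was −0.21 with the trend on gene length removed. Ezh2 was called by DESeq2 (−1.47) and with no filter (−1.46), and by edgeR without WT replicate 2 (−1.33, adjusted p 0.0455). It ran from −1.63 to −1.32 over libraries left out and was −1.18 in limma on log2(FPKM + 1). DESeq2 called 3 genes of mTORC1 sensing, 4 of the amino acid response and 1 carrier of other families. With each library left out, in edgeR and DESeq2 together, the counts ran from 0 to 4, 0 to 15 and 0 to 3, and for trafficking genes from 0 to 3. In DESeq2 alone those of the amino acid response ran from 1 to 15. With the replicate number as a block, 0 members were called and Ezh2 was at −1.47 (edgeR adjusted p 0.155); the numbers are not known to pair libraries. The cause of the changes was not tested.

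Removing each library's trend on gene length reversed Slc38a10 (−0.039), Slc38a2 (−0.057), Slc38a9 (−0.23), Slc43a2 (−0.23) and Slc6a15 (−0.030). Slc6a15 was also reversed under upper-quartile scaling (−0.028) and thinning to the smallest total (−0.00403). Slc36a2 was reversed under the replicate block (0.47) and limma with a pseudocount of 1 (0.053) or 0.1 (0.46). Over libraries left out, log2 fold changes that crossed 0 ran from −0.25 to 0.37 for Slc1a3, −0.68 to 0.15 for Slc1a4, −0.62 to 0.94 for Slc36a2, −0.15 to 0.10 for Slc36a4 and −0.010 to 0.19 for Slc38a10. They ran from −0.066 to 0.19 for Slc38a2, −1.09 to 0.39 for Slc38a4, −0.036 to 0.26 for Slc38a9, −0.70 to 0.24 for Slc43a1 and −0.14 to 0.56 for Slc43a2. In the SLC6 family they ran from −0.0051 to 0.72 for Slc6a14, −0.049 to 0.085 for Slc6a15, −0.0049 to 0.28 for Slc6a8 and −0.84 to 0.23 for Slc6a9. In the SLC7 family they ran from −0.41 to 0.35 for Slc7a1, −0.47 to 0.23 for Slc7a2, −0.96 to 0.19 for Slc7a3, −0.36 to 0.11 for Slc7a5 and −0.43 to 0.058 for Slc7a7.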
